A study of Danio rerio with 2 samples.

Results

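The cells described here are habenula neurons that express kiss1, the gene of the neuropeptide kisspeptin 1, in sorted brain cells of adult zebrafish. They were chosen by their own transcripts. A cell barcode was a member when it held at least 2 kiss1 UMIs (unique molecular identifiers, 1 per captured RNA molecule), or at least 1 kiss1 UMI together with at least 1 UMI of gpr139 or pou4f1. This rule found 114 members among 7322 kept barcodes, 91 of 3231 in the gpr85 knockout library and 23 of 4091 in the control library. Levels of kiss1, gpr139 and pou4f1 in members are therefore a description of the rule, and no comparison rests on them.

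The study compared sorted cells that express gpr85 between knockout and control brains. The receptor Gpr85, also called SREB2, has no established ligand and is expressed widely in vertebrate brains. The knockout library came from fish of genotype gpr85GAL4/GAL4 and the control library from fish of genotype gpr85Gal4/+. Both groups thus carried the Gal4 knock-in, on both alleles in the knockout and on 1 allele in the control. The control kept 1 wild-type allele. Brains were dissociated with papain, live eGFP-positive cells were sorted with Sytox Red as the dead-cell stain, and 3' droplet libraries were made. The labels do not give the number of fish. Each genotype had 1 library, so no test between genotypes was possible, and all intervals below are 95% intervals that cover counting error only. Differences between animals, sorts and library preparations are not covered. The members held 687184 UMIs in the knockout and 200458 UMIs in the control library, and levels are given in CPM, the UMIs of a gene per summed UMIs of a population, scaled to a common total. All other kept barcodes held 10528732 and 13554371 UMIs in the knockout and control libraries.

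The habenula is a paired relay in the dorsal diencephalon that links forebrain areas to monoaminergic and midbrain nuclei. In zebrafish it has a dorsal part, which projects to the interpeduncular nucleus, and a ventral part, the counterpart of the mammalian lateral habenula, which projects to the serotonergic raphe. Kiss1 is made in the ventral habenula of teleost fish, where kisspeptin is known to act on habenular neurons themselves as well as on the raphe.

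Members made up 2.82% of kept barcodes in the knockout library (exact interval 2.27 to 3.45) and 0.562% in the control library (0.357 to 0.842). Members were thus 5.01 times as frequent among knockout as among control barcodes (3.18 to 7.90). As each genotype had 1 library, a difference in how many of these cells were present, labelled or captured cannot be told apart. Members were deeper than the rest, with a median of 7314 UMIs and 2859 genes in the knockout and 7463 UMIs and 2957 genes in the control library. The other kept barcodes had medians of 2818 UMIs and 1581.5 genes in the knockout and 2578.5 UMIs and 1521 genes in the control library. Of all kept barcodes, 8 sequences occurred in both libraries, and 0 of them were members in both.

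The kiss1 gene itself had 3781 CPM in knockout and 4205 CPM in control members, and 75.4 and 18.4 CPM in barcodes with under 100 UMIs, taken as free RNA. The number of kiss1 UMIs per member ran from 1 to 117 with a median of 26 in the knockout library, and from 1 to 95 with a median of 38 in the control library. Few members lay near the threshold. In the knockout library 82 members had at least 5 kiss1 UMIs and 9 had fewer. In the control library 19 had at least 5, the lowest of them 24, and 4 had 1 or 2. Just inside the rule lay 2 knockout and 3 control members with 1 kiss1 UMI and a partner gene, and 3 knockout and 1 control members with 2 or more kiss1 UMIs and no partner gene. Just outside lay 13 knockout and 4 control barcodes with 1 kiss1 UMI and neither gpr139 nor pou4f1.

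**Figure D1:**
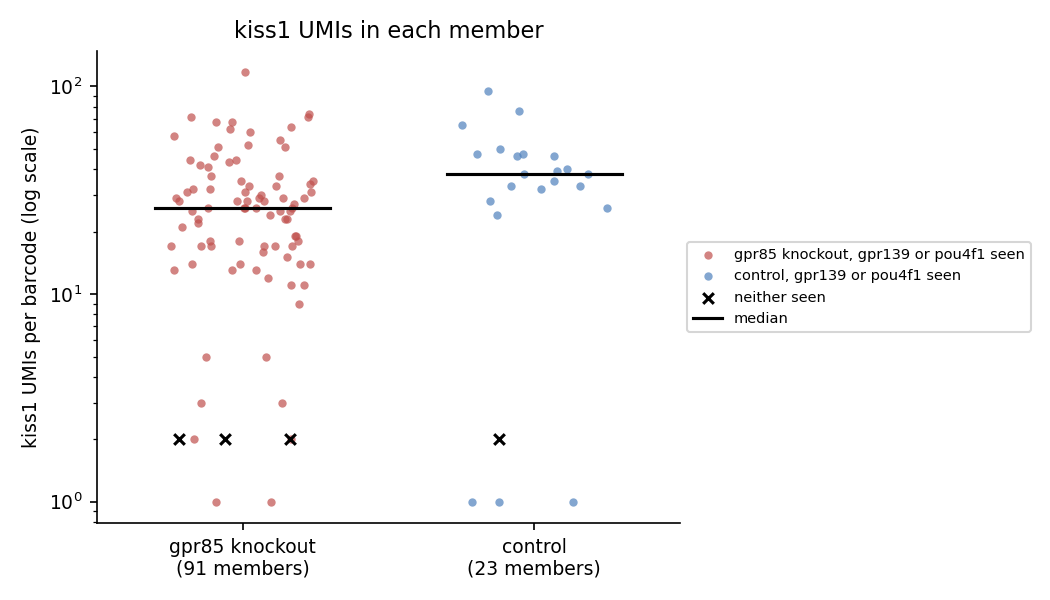
Number of kiss1 UMIs (log scale) in each of the 91 knockout and 23 control members, with medians of 26 and 38 as lines. Crosses are members without a gpr139 or pou4f1 UMI, 3 in the knockout and 1 in the control library, all near the threshold.

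Habenular genes that the rule did not use, 3 in number, were looked at per barcode. They were aoc1 (an amine oxidase, marker of the ventral habenula), wnt11 (a secreted Wnt ligand) and tcf7l2 (a Wnt effector expressed in developing and adult habenula). All 3 were chosen with earlier results of these data known, and aoc1 is among the 20 genes most raised in members. Their counts describe the members and are no independent check of the label. At least 2 of these 3 genes were seen in 82 of 91 knockout members and 22 of 23 control members. Among barcodes with 0 kiss1 UMIs, 3 of 3127 in the knockout and 6 of 4064 in the control library carried at least 2 of them. The 13 knockout and 4 control barcodes just outside the rule carried 0 of the 3 genes. The 3 knockout members and the 1 control member with no partner gene carried none of the 3 genes either, and all 3 of those knockout members held cbln12, a cerebellar granule cell gene. Another 3 knockout members, with under 5 kiss1 UMIs and a partner gene, also carried none of the 3 genes. In all, 6 knockout members and 1 control member carried none of them. The 4 without a partner gene went against the label, and the gene levels below include all of these members. With the rule raised to at least 5 kiss1 UMIs, 98.0% of all members carried at least 2 of the 3 genes, against 91.2% under the rule as given. Other habenular genes outside the rule were seen in far fewer members. Among them were kctd12.1 (26 knockout and 7 control members), kctd12.2 (30 and 4) and gng8 (1 and 0).

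Per gene, aoc1 was seen in 84.6% of knockout members (75.5 to 91.3) and 91.3% of control members (72.0 to 98.9). In granule barcodes (kiss1 at 0, with UMIs of at least 2 of the cerebellar granule cell genes cbln12, gabra6b, fat2 and barhl1a), which should lack the gene, it was seen in 0.224% of 2236 in the knockout and 0.107% of 2791 in the control library. After each barcode was thinned to 1000 UMIs the shares in members were 30.8% and 30.4% in the knockout and control libraries. Summed over members, aoc1 stood at 431 CPM (95% interval 383 to 483) in the knockout and 424 CPM (95% interval 339 to 524) in the control library, against 0.855 and 1.48 CPM in the other barcodes of the same libraries. The levels of wnt11 were 445 CPM (95% interval 397 to 498) in knockout and 863 CPM (95% interval 739 to 1002) in control members, with 1.80 and 1.33 CPM in the others. For tcf7l2 they were 1039 CPM (95% interval 964 to 1118) in knockout and 978 CPM (95% interval 846 to 1125) in control members, with 9.78 and 46.8 CPM in the others. Each of these genes was at least 20.9-fold higher in members than in the rest of the same library. Values of wnt11 came from 79 knockout and 21 control members, and those of tcf7l2 from 83 and 22. In granule barcodes wnt11 was seen in 0.134% of the knockout and 0.215% of the control ones, and tcf7l2 in 0.447% and 1.505%, at median depths of 2938 and 2730 UMIs. Deeper sets held tcf7l2 more often. It was seen in 6% of knockout and 16.7% of control GABAergic barcodes (chosen by gad1b, gad2 and slc32a1), at 55.1 and 264 CPM. In glial barcodes, described below, the shares were 13.1% and 19.5%, at 35.1 and 246 CPM. For aoc1 and wnt11 the shares in these sets were 4.39% or less.

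The KCTD auxiliary subunits of GABA-B receptors, habenular genes also used as left-right markers in zebrafish larvae, were seen in fewer members. One of them, kctd12.1, had 55.3 CPM in knockout and 54.9 CPM in control members, from 26 and 7 barcodes, and 2.37 and 9.001 CPM in the others. The level of kctd12.2 was 172 CPM in knockout members, from 30 barcodes, and 69.8 CPM in control members, from 4 barcodes, of which 1 held 78.6% of the UMIs. Both genes were at least 4-fold higher in members in each library. With each gene's UMIs in its top barcode taken away and UMI totals unchanged, however, the control log2 ratio of kctd12.2 was 0.33. Neither gene was particular to members. In 6 other habenular barcodes of the control library, described below, kctd12.1 stood at 658 CPM and kctd12.2 at 361 CPM. Glial barcodes of the knockout library (84, chosen by microglial and radial glial genes) had kctd12.2 at 184 CPM in 36.9% of them, against 33.0% of knockout members. In the control library 133 glial barcodes had kctd12.2 at 44.3 CPM in 15.8% of them, against 17.4% of control members. Neither glial set was of glial genes alone. The GABA synthesis gene gad2 stood at 522 CPM in 11.9% of the knockout and at 877 CPM in 33.1% of the control glial barcodes. The pan-habenular list of 7 measured genes had 3 of 6 tested genes at least 4-fold higher (tcf7l2, kctd12.1 and kctd12.2), where 534 of all 6589 genes tested were (8.10%). Another gene of that list, the G-protein subunit gng8, had 2 UMIs in knockout members and 0 UMIs in control members.

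Of the 13 measured genes on the dorsal habenula list, 6 had 0 UMIs in knockout and 5 had 0 UMIs in control members. The neuropeptide genes tac3a, tac1 and adcyap1a, the choline acetyltransferase gene chata and the transporter gene slc18a3a had 0 UMIs in members of both libraries. A count of 0 allows up to 4.37 CPM in knockout and 15.0 CPM in control members. Of the 6 dorsal genes with enough UMIs to be tested, 2 were at least 4-fold higher in members, kctd12.1 and slc18a3b, a count to be read against the same 8.10%. The dorsal list also holds pou4f1, seen in 75 of 91 knockout and 19 of 23 control members, at 377 and 668 CPM. As a gene of the rule it was not counted, and neither were kiss1 and gpr139, which are on the ventral list. A vesicular acetylcholine transporter is encoded by slc18a3b, which had 118 CPM in knockout and 139.7 CPM in control members, against 0.380 and 2.73 CPM in the others. The choline transporter slc5a7a had 0 UMIs in knockout members and 1 UMI in control members. On the ventral list, aoc1 and wnt11 were the 2 of 3 tested genes at least 4-fold higher, the third being slc17a6b, again against 8.10% of all genes tested. Other habenular barcodes were chosen by gng8, a gene nearly absent from members, so habenular cells without gng8 fall outside that set. Outside the members, gng8 was seen in 0 of 3140 knockout and 6 of 4068 control barcodes. These 6 control barcodes, with a median of 14145.5 UMIs, formed the set. They shared several genes with the members: tcf7l2 stood at 983 CPM in 5 of the 6, irx1b at 307 CPM in 5, slc18a3b at 198 CPM in 4 and nr4a2a at 144 CPM in 4. They differed in others, with 0 UMIs of aoc1 and kiss1rb, 2 UMIs of wnt11 in 1 barcode and 1704 CPM of tac3a in 3 of the 6. Of the 6, 3 held cbln12, and with so few barcodes of 1 library no test was made.

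Across all genes, 534 of 6589 genes with enough UMIs were at least 4-fold higher in members than in the others in both libraries, which is 8.10% of those tested. Of 7221 genes tested for lower levels, 580 were at least 4-fold lower in both libraries (8.03%). Because members were chosen by transcripts of the same cells, these counts describe the members and are no test. A gene was tested for higher levels with at least 20 UMIs in members of both libraries together.

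**Figure D2:**
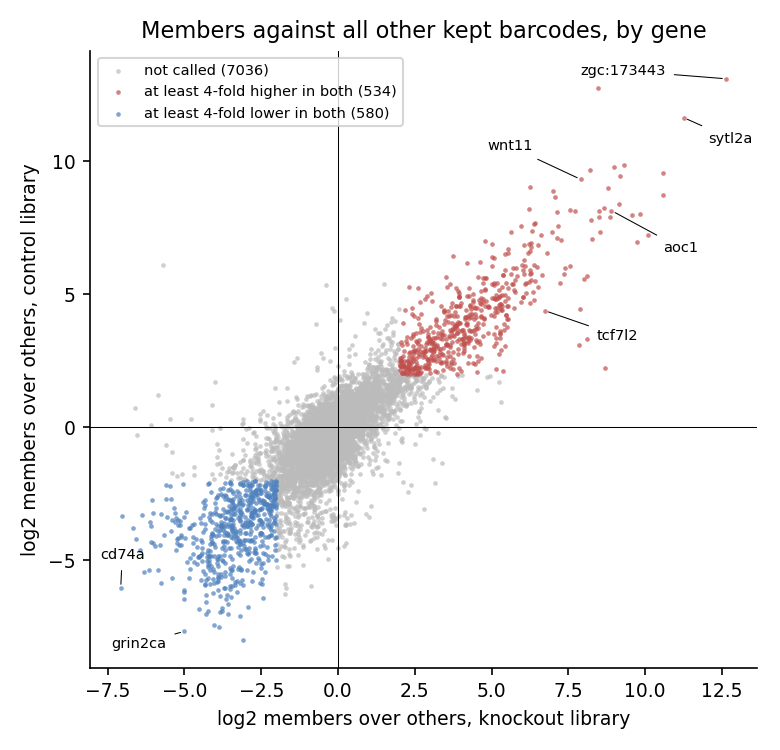
Log2 ratio of members over all other kept barcodes for each gene tested, in the knockout library (horizontal axis) and the control library (vertical axis). Red points are the 534 genes at least 4-fold higher and blue points the 580 at least 4-fold lower in both libraries, and the wnt11 ratios are 7.91 and 9.31.

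The kisspeptin receptor gene kiss1rb was among the 20 genes most raised in members. It had 325 CPM (95% interval 283 to 370.0) in knockout and 359 CPM (95% interval 281 to 452) in control members, and 0.855 and 1.48 CPM in the others. It was seen in 79 of 91 knockout and 22 of 23 control members, and by the rule each of these barcodes also held kiss1. The second receptor, kiss1ra, was also at least 4-fold higher, at 30.6 CPM in knockout and 59.9 CPM in control members, but 1 barcode held 66.7% of its control UMIs. The second ligand, kiss2, had 0 UMIs in members of both libraries.

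Of 7 other neuropeptide genes tested for higher levels, 4 were at least 4-fold higher, where 8.10% of all genes tested were: sst6, pnoca, pnocb and nts. A somatostatin family gene, sst6, had 209.6 CPM in knockout and 169.6 CPM in control members, against 1.23 and 3.17 CPM in the others. The nociceptin precursor genes pnoca and pnocb had 502 and 32.0 CPM in knockout members and 145 and 24.9 CPM in control members. Neurotensin, nts, is given with the genotypes below, and its knockout level rests on few UMIs. The control level of pnocb likewise rests on few UMIs. Of 15 tested genes for dense core granules and prohormone processing, 1 was at least 4-fold higher, a share near the 8.10% of all genes tested. This gene was ptprn2, a dense core vesicle membrane protein, at 2964 CPM in knockout and 2269.8 CPM in control members. The granin-family gene vgf was at least 4-fold lower, at 17.5 CPM in knockout and 4.99 CPM in control members, against 172 and 170.1 CPM in the others.

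Among transmitter genes, 1 of 3 tested was at least 4-fold higher (slc18a3b, above) and 4 of 6 were at least 4-fold lower. Over all genes tested, 8.10% were higher and 8.03% lower by the same limits. The vesicular glutamate transporter slc17a6b had 445 CPM in knockout and 503.8 CPM in control members, 3.02-fold and 2.93-fold above the others, which is short of the 4-fold limit. The related slc17a7a, the transporter of granule cells, was at least 4-fold lower, at 43.7 CPM in knockout and 4.99 CPM in control members, against 585 and 492 CPM in the others. The other 3 lower genes were gad1b, gad2 and the GABA transporter slc6a1b. The GABA synthesis genes gad1b and gad2 had 2 and 6 UMIs in knockout members and 0 and 0 UMIs in control members.

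The diencephalic and habenular list held 21 transcription factor genes, of which 7 had 0 UMIs in knockout and 12 had 0 UMIs in control members. Genes scarce in members could not be tested for higher levels. The 7 that were tested, not counting pou4f1, were at least 4-fold higher in members, so this count describes the genes that members held. Of 3 tested for lower levels 1 was lower, otx2b. Over all genes tested, 8.10% were higher and 8.03% lower. The higher genes of this list were tcf7l2, lmo3, nr4a2a, pou4f2, irx1b, irx3a and irx5a. The LIM-domain cofactor lmo3 had 1859.8 CPM in knockout and 1467 CPM in control members, against 9.78 and 22.1 CPM in the others. The orphan nuclear receptor gene nr4a2a had 474 CPM in knockout and 359 CPM in control members, against 0.570 and 1.40 CPM. The POU factor pou4f2 had 384 CPM in knockout and 359 CPM in control members, against 5.89 and 12.03 CPM. Among the Iroquois factors, irx1b stood at 249 CPM in knockout and 404 CPM in control members, with 0.760 and 2.95 CPM in the others. Outside the list, the factor onecut1 was among the 20 most raised genes, at 364 CPM in knockout and 429 CPM in control members.

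**Figure D3:**
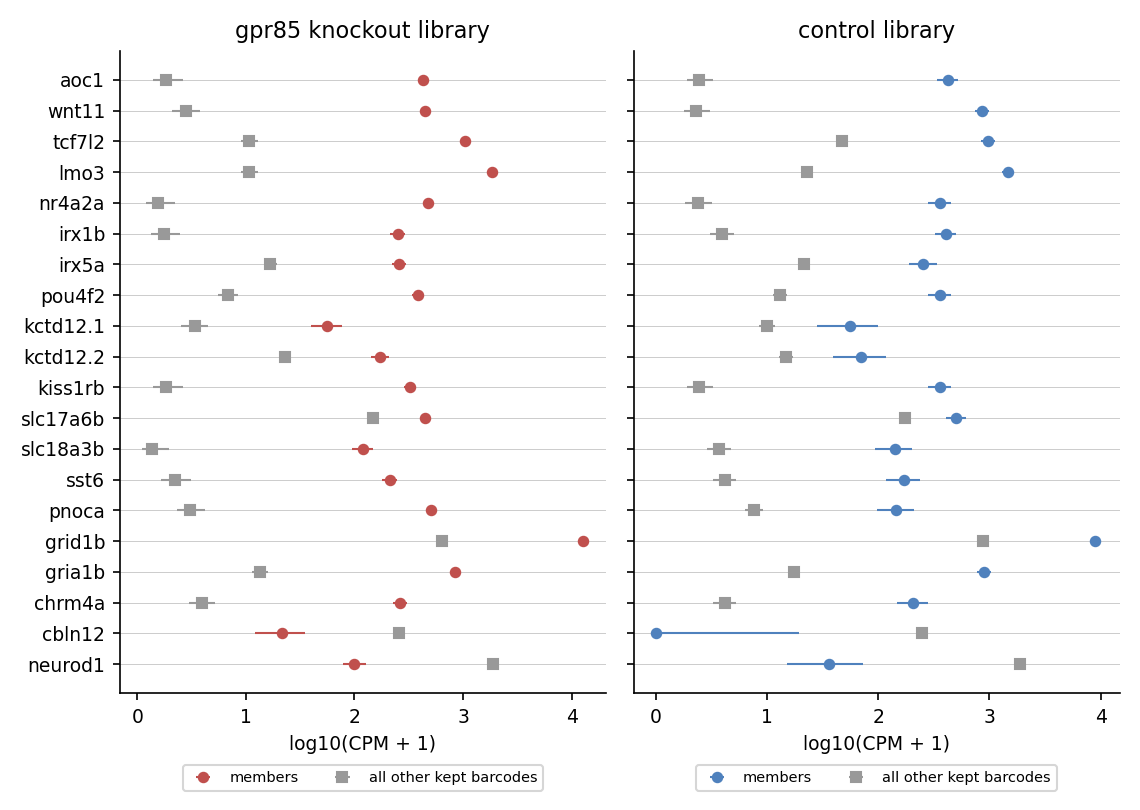
Levels of 20 genes as log10(CPM + 1) in members (circles) and all other kept barcodes (grey squares) of the knockout library (left) and the control library (right). Bars are 95% counting intervals, and aoc1, wnt11 and tcf7l2 lie far to the right of the squares in both panels while cbln12 and neurod1 lie to the left.

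Several further genes were seen almost wholly in members. Counts of sytl2a (a synaptotagmin-like protein of secretory vesicles) were 79 UMIs in 39 knockout members and 23 UMIs in 11 control members, against 0 UMIs in all other barcodes, so its level was at least 403-fold higher in the knockout and at least 518-fold higher in the control library. These bounds rest on a floor of 3 UMIs over the other barcodes. The G-protein gamma subunit gene si:dkey-117i10.1, named gng14 in the gene table, had 4556 CPM in knockout and 4944 CPM in control members, and 7.88 and 7.16 CPM in the others. The phosphatase inhibitor ppp1r14ab had 2644 and 2569 CPM in knockout and control members, against 4.65 and 7.599 CPM. Also in this group were the serotonin receptor htr7b, at 147 CPM in knockout and 205 CPM in control members, the tubulin glycylase-like gene ttll10, at 688 and 399 CPM, and the protease inhibitor gene spint2, at 295 and 269 CPM.

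Among receptors for amines, peptides and metabotropic ligands, 5 of 14 tested were at least 4-fold higher: chrm4a, oprl1, sstr5, npy1r and gabbr1a. Of 15 tested for lower levels, 6 were at least 4-fold lower. Over all genes tested, 8.10% were higher and 8.03% lower by these limits. The muscarinic receptor chrm4a had 263 CPM in knockout and 205 CPM in control members, against 2.94 and 3.17 CPM in the others. The nociceptin receptor oprl1 had 464 CPM in knockout and 539 CPM in control members. Both partners of the GABA-B receptor were seen, gabbr1a at 1212 and gabbr2 at 4924 CPM in knockout members and 1502 and 4934 CPM in control members, and gabbr2 stayed under the 4-fold limit in the control library at 3.88-fold. For ionotropic receptors, 5 of 15 tested were at least 4-fold higher (gria1a, gria1b, gria4b, grid1b and gabrb4), beside the same 8.10%. Of 21 tested for lower levels, 11 were at least 4-fold lower, beside the same 8.03%. The delta glutamate receptor grid1b had 12685 CPM in knockout and 8984 CPM in control members, 19.9-fold and 10.3-fold above the others. The AMPA receptor gria1b had 845 and 893 CPM in knockout and control members, 67.2-fold and 54.1-fold above the others. Of 6 channel genes tested for higher levels, the M-current gene kcnq5b was the 1 at least 4-fold higher. Of 9 tested for lower levels, cacna1g, a T-type calcium channel, and kcnj5 were lower. With so few channel genes, these counts are no result about the list beside the same 8.10% and 8.03%.

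The genes lowest in members included markers of other cells. The 10 lowest were cd74a and apoc1 (microglial genes), sox11b (a factor of immature neurons), grin2ca (an NMDA receptor subunit), en1b (a hindbrain and midbrain factor), gng7, fxyd1, golga7bb, zgc:113162 and BX942837.1. For example, cd74a had 1 UMI in knockout and 0 UMIs in control members, against 295 and 165 CPM in the others. Of 11 tested granule cell genes, 7 were at least 4-fold lower (8.03% of all genes tested were). Of 6 tested for higher levels, 0 were higher (8.10% of all genes tested were). Summed over that list of 12 genes, members had 2263 CPM in the knockout and 1272 CPM in the control library, against 8089 and 7554 CPM in the others. Of these, zic1 remained at 529.7 CPM in knockout and 649 CPM in control members. The microglial list summed to 13.1 CPM in knockout and 15.0 CPM in control members, with 9 and 12 of its 15 genes at 0. The pineal list, from the neighbouring tissue, had 1 tested gene, gnat2, which was at least 4-fold higher at 32.0 CPM in knockout and 39.9 CPM in control members, while exorh, crx and aanat2 were at 0. The Purkinje gene ca8 was also higher, at 62.6 CPM in knockout and 244 CPM in control members, with 8 and 2 UMIs of pvalb7. In further lists of other cells, the GABAergic list summed to 37.8 CPM in knockout and 4.99 CPM in control members, against 243 and 396 CPM in the others. The radial glial list summed to 115 and 179.6 CPM in knockout and control members, against 1023 and 293 CPM. The oligodendrocyte list summed to 131 and 129.7 CPM in knockout and control members, against 536 and 668 CPM. The immature neuron list, which holds sox11b, was not low as a whole, with 1086 CPM in knockout and 978 CPM in control members, against 997 and 1224 CPM, and 2 of its 6 tested genes were at least 4-fold lower.

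Immediate early genes, which are switched on quickly by neuronal activity and other stimuli, were compared next. Of 23 immediate early genes tested, 10 were at least 4-fold higher in members in both libraries and 0 of 18 were lower. Over all genes tested, 8.10% were higher and 8.03% lower. The 10 include nr4a2a, which is also counted above among the transcription factors. The immediate early list had a median log2 ratio of members over others of 1.95 in the knockout and 3.13 in the control library. Over all 6589 genes tested for higher levels the medians were -0.04 and -0.05. Of 14 heat shock genes, 6 were at least 4-fold higher (hsp70.1, hsp70.2, hsp70.3, hsp70l, hsp90aa1.2 and dnajb1a) and 1 was lower, hspa8b. These counts are to be read against the same 8.10% and 8.03%. Level sums of the heat shock list were 10549 CPM in knockout and 8799.9 CPM in control members, against 3059.8 and 2789 CPM in the others. The hsp70 genes are close copies, so counts may be split between them. The part that dissociation and sorting may have in these levels was not tested.

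The comparison of genotypes within members began with the targeted gene. The count of gpr85 (ENSDARG00000068701) was 56 UMIs in 34 of 91 knockout members, 81.5 CPM (95% interval 61.6 to 106), and 21 UMIs in 14 of 23 control members, 105 CPM (95% interval 64.8 to 160.1). Its log2 ratio of knockout over control was -0.38 (-1.11 to 0.44), against -0.40 in the other barcodes. No difference was detectable in members at this depth. In the other barcodes, where far more UMIs were summed, the intervals did not overlap. Levels there were 110 CPM (95% interval 104 to 117) in the knockout and 145 CPM (95% interval 139 to 152) in the control library. The labels do not say which part of gpr85 the Gal4 insertion replaces, so these 3' counts do not check the genotype labels. The SREB relative gpr27 had 23 and 5 UMIs in knockout and control members, and gpr173 had 0 in both.

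The added reporter sequence H2B-mGL, a histone fused to a fluorescent protein by its name, differed more. The labels describe a sort on eGFP and do not say whether H2B-mGL is the reporter that was sorted on, so its level is not read as the sorted signal. Members had 20530.2 CPM (95% interval 20193 to 20872) in the knockout and 4739 CPM (95% interval 4443 to 5050.4) in the control library, a log2 ratio of 2.11 (2.02 to 2.21). In the other barcodes the levels were 25851 CPM in the knockout and 12185 CPM in the control library, a log2 ratio of 1.09. Gal4 was on both gpr85 alleles in knockout fish and beside a wild-type allele in control fish. Any effect of Gal4 dose on H2B-mGL and any effect of losing gpr85 cannot be told apart here. Free RNA (barcodes with under 100 UMIs) had 14832 CPM in the knockout and 9908 CPM in the control library, so the level in control members lay below that of free RNA and the level in knockout members above it. Low H2B-mGL counts in a barcode are therefore not read as expression. Per barcode the median was 131 UMIs in knockout members and 9 in control members. Of 91 knockout members 10 had 10 or fewer H2B-mGL UMIs, and of 23 control members 12 did. The highest control member held 27.5% of the control UMIs. Without the H2B-mGL UMIs of the top barcode of each library, and with UMI totals unchanged, the log2 ratio was 2.52. Single members of both libraries overlapped, from 0 to 82815 CPM in the knockout and from 0 to 24358 CPM in the control library.

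Over all genes with at least 30 UMIs in members, 310 of 5113 were past 2-fold higher in knockout members with an interval apart from 0 (6.06%), and 257 were past 2-fold lower (5.03%). The same limits applied to the other barcodes gave 33 higher and 92 lower genes of 5078. The middle 95% of log2 ratios ran from -1.34 to 1.71 in members and from -0.88 to 0.57 in the others, where more barcodes were summed. When each gene's UMIs in its top barcode were taken away in each library, the counts were 483 higher and 116 lower. That step takes the counts of 1 of 23 barcodes from the control and of 1 of 91 from the knockout library. The UMI totals still included that barcode, so levels after this step are too low, more so where fewer members are summed.

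Genes lower in knockout members included nts, cpne5a, ephb6, cntnap5l, sez6a, plk2b, nlgn1 and TENM2, the 8 lowest ratios. For nts there were 6 UMIs in 4 of 91 knockout members and 116 UMIs in 15 of 23 control members, 8.73 against 579 CPM. The log2 ratio was -5.94 (-7.53 to -4.88), and it was -3.31 in the other barcodes. Of the 116 control UMIs, 44.8% lay in 1 barcode. The contactin-associated cntnap5l had 24.7 CPM in 7 knockout members and 768 CPM in 13 control members, a log2 ratio of -4.92 (-5.77 to -4.23), with -0.37 in the others. Neuroligin nlgn1 had 66.9 CPM in 9 knockout members and 1023 CPM in 10 control members, and 58.7% of its knockout UMIs lay in 1 barcode. The teneurin gene TENM2 has 2 features of that symbol, and both were lower. For ENSDARG00000037122 the level was 162 CPM in 25 knockout members and 2245 CPM in 20 control members, and for ENSDARG00000011171 it was 650.5 CPM in 51 knockout members and 2070.3 CPM in 22 control members. For cpne5a, a copine, 1 control barcode held 55.4% of the UMIs. The seizure-related gene sez6a, the kinase gene plk2b and the ephrin receptor ephb6 had log2 ratios of -4.84, -4.27 and -5.39. Members with cntnap5l seldom held pnoca, a gene with a higher knockout ratio. In the knockout library 1 of 7 did, against 73.8% of the members without cntnap5l, and in the control library 1 of 13 did, against 90%. For adcyap1b the shares were 28.6% with and 85.7% without cntnap5l in the knockout library, and 7.69% with and 60% without it in the control library. The share of members with a UMI of each gene differed between the libraries. The gene cntnap5l was held by 7 of 91 knockout and 13 of 23 control members, and pnoca by 63 of 91 knockout and 10 of 23 control members. For these genes a different mix of members and a different level within members cannot be told apart by these shares or by the summed ratios. These pairs of genes, too, were looked at after their values were known.

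Genes higher in knockout members at the top of the ratios were grm8a, GNB4, cort, si:dkey-26c10.5, naxd, doc2b, zgc:171482 and grik4, all at 0 UMIs in the 23 control members. The metabotropic glutamate receptor grm8a had 59 UMIs in 25 knockout members and was at least 5.74-fold higher against a floor of 3 control UMIs. Counting every barcode with at least 1 kiss1 UMI as a member moved its log2 ratio to 0.58, against 5.12 under the rule as given. It was also at least 4-fold lower in members than in the others, which had 735 and 629 CPM, and barcodes with under 100 UMIs, taken as free RNA, had 961 and 505 CPM. The G-protein subunit GNB4 had 50 UMIs in 35 knockout members, at least 4.86-fold higher. The cortistatin-like gene cort had 43 UMIs, all in 1 knockout member, and is thus a value of 1 barcode. For doc2b 1 barcode held 63.9% of the UMIs. The feature ENSDARG00000075513 of the symbol ccdc136b had 102 UMIs in 15 knockout members and 1 UMI in control members, while the other feature of that symbol had 27 and 6 UMIs. The Wnt antagonist dkk1b had 40 UMIs in 11 knockout members and 4 UMIs in 1 control member.

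Neuropeptide and channel genes with UMIs in both libraries also differed. The nociceptin precursor pnoca had 502 CPM (95% interval 450.5 to 558) in 63 knockout members and 145 CPM (95% interval 96.9 to 208) in 10 control members, a log2 ratio of 1.77 (1.25 to 2.40). PACAP gene adcyap1b had 701 CPM in 74 knockout members and 159.6 CPM in 7 control members, a log2 ratio of 2.11 (1.62 to 2.70), while in the others it was -0.29. The G-protein-gated potassium channel gene kcnj3b had 180.4 CPM in 49 knockout members and 19.95 CPM in 3 control members, a log2 ratio of 3.01 (1.78 to 5.08). Of 6 tested neuropeptide genes other than kiss1, 4 were past 2-fold higher and 1 was past 2-fold lower in knockout members, with a median of 1.94. Over all 5113 genes tested, 6.06% were higher and 5.03% lower. Of the 4 higher neuropeptide genes, sst1.1 and uts1 had 96.9% and 64.9% of their knockout UMIs in 1 barcode.

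Granule cell genes on the marker list also had higher ratios in members, at 4 of 6 tested, where 6.06% of all genes tested were past 2-fold higher. The factor etv1, which is also on the dorsal habenula list, had 748 CPM in 68 knockout and 175 CPM in 7 control members, and zic2a had 521 CPM in 77 knockout and 129.7 CPM in 12 control members. The defining gene cbln12 had 14 UMIs in knockout and 0 in control members. In free RNA etv1 had 664 and 529 CPM and zic2a 921 and 1003 CPM in the knockout and control libraries. The part of granule RNA in the genotype ratios of members was not tested.

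Habenular genes outside the rule were compared between genotypes in the same way. The log2 ratio was 0.02 (-0.33 to 0.39) for aoc1, 0.09 (-0.14 to 0.32) for tcf7l2, -0.15 (-0.54 to 0.26) for kiss1rb and -0.96 (-1.23 to -0.68) for wnt11, so only the wnt11 interval lay apart from 0 among these 4. Of the 7 tested transcription factors 0 were past 2-fold in either direction, which is no result about the list, since 6.06% of all 5113 genes tested were higher and 5.03% lower. Their median was 0.09. The habenular gene kctd12.2 was past 2-fold higher at 1.25 (0.49 to 2.21), a value that rests on 4 control members. Mitochondrially encoded genes had 0 of 10 past 2-fold, with summed levels of 11976 CPM in knockout and 11978 CPM in control members.

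**Figure D4:**
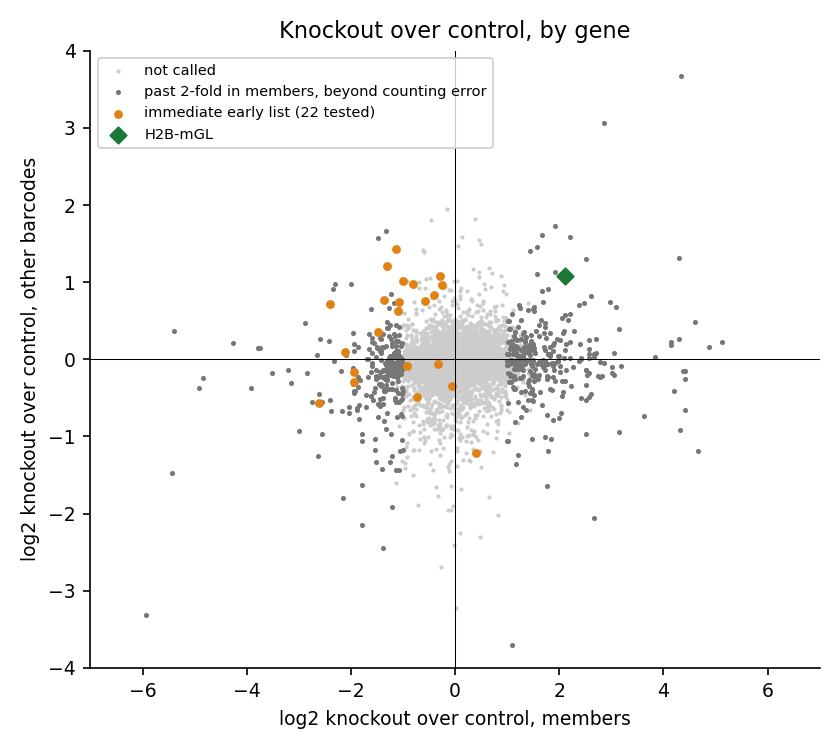
Log2 ratio of knockout over control in members (horizontal axis) and in all other barcodes (vertical axis), for the genes tested in members. There are 2 genes outside the axes, dark points are past 2-fold in members, orange points are the 22 immediate early genes, of which 21 lie left of 0, and the diamond is H2B-mGL.

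Among immediate early genes the knockout members were mostly lower than the control members. Of 22 tested, 21 had a ratio below 0, 11 were past 2-fold lower and 0 past 2-fold higher, with a median of -1.03, against 0.04 over all 5113 genes tested. Over all those genes, 5.03% were past 2-fold lower and 6.06% past 2-fold higher. In the other barcodes the 22 immediate early genes had a median of 0.67, and 14 of them had ratios above 0. Of the 11 lower ones, 8 had ratios above 0 there. The activity-regulated factor npas4a had 837 CPM (95% interval 769.7 to 908) in knockout and 1831 CPM (95% interval 1648 to 2028) in control members, a log2 ratio of -1.13 (-1.32 to -0.94), against 1.43 in the others. The AP-1 gene fosab had 2388 CPM in knockout and 5093 CPM in control members, a log2 ratio of -1.09 (-1.21 to -0.98), against 0.63. Zinc finger gene egr2b had 221 CPM in knockout and 958 CPM in control members, a log2 ratio of -2.11 (-2.43 to -1.80), and the antiproliferative gene btg2 had a log2 ratio of -1.49 (-1.68 to -1.29). For atf3, at -2.62 (-2.98 to -2.27), 1 control barcode held 55.7% of the UMIs.

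Single members varied widely in this list. Its summed level per barcode ran from 0 to 65665 CPM with a median of 10434.5 CPM in knockout members, and from 887 to 98759.9 CPM with a median of 15772 CPM in control members, so the members of both libraries overlapped. Among members with at least 5 kiss1 UMIs the medians were 12717 CPM in the knockout and 28175 CPM in the control library. The other barcodes had medians of 1771 CPM in the knockout and 1578 CPM in the control library. Whether the direction of the genotype ratio in members exceeds the spread between animals was not tested, as each genotype had 1 library.

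**Figure D5:**
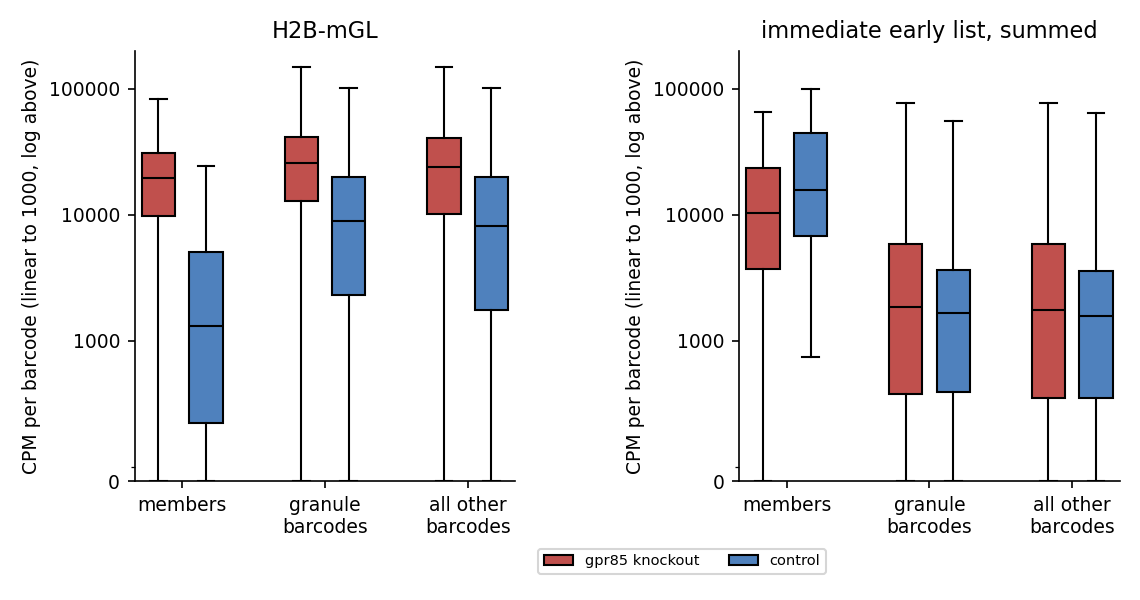
CPM per barcode (linear to 1000, log above) of H2B-mGL (left) and of the summed immediate early list (right) in members, granule barcodes and all other kept barcodes of the knockout (red) and control (blue) libraries. Boxes span the quartiles with the median as a line and whiskers reach the lowest and highest barcode, and the medians of H2B-mGL in members are 19755 CPM in the knockout and 1321 CPM in the control library.

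Members also differed among themselves within a library. The index of dispersion, the spread of a gene's counts over members relative to counting alone after allowing for depth, had a median of 1.70 over 1510 genes in the knockout library. The highest values there were 84.2 for H2B-mGL, 31.4 for grid1b, 29.7 for egr4, 28.5 for hsp70l and 28.0 for tenm3. In the control library H2B-mGL led as well, at 69.9. Some genes were seen in a minority of members at high counts. One was btr07, a gene of the large bloodthirsty-related family whose counts may be shared among copies. It was seen in 15 of 91 knockout members and 6 of 23 control members, with up to 40 and 26 UMIs in a member, and 0.380 and 0 CPM in the others. The uncharacterised gene zgc:173443 was seen in 15 knockout and 7 control members with 209 and 64 UMIs, against 0 UMIs in all other barcodes of both libraries. Apart from these genes, the Nodal antagonist lft1 was seen in 18 of 91 knockout and 11 of 23 control members.

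Some genes were seen together in the same members, among them genes that most members of a library held. In the knockout library 10 of 15 members with btr07 also held lft1 (66.7%), against 10.5% of members without btr07, and in the control library 6 of 6 did, against 29.4%. Members with pnoca held adcyap1b in 61 of 63 cases in the knockout library (96.8%), against 46.4% of members without pnoca. In the control library 7 of 10 members with pnoca held adcyap1b, against 0 of the 13 without. Another pair was cntnap5l and grip2b, a glutamate receptor interacting protein. Of 7 knockout members with cntnap5l 6 held grip2b, against 5.95% of the rest, and in the control library 7 of 13 did, against 20%. These pairs were chosen after the values were seen, deeper members hold more genes of any kind, and the overlaps are given as descriptions.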

How the data were processed

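The deposited files are UMI counts per gene and cell barcode for 2 libraries, 1 per genotype, and the counts are unnormalised. Per the file headers they were made with Cell Ranger 7.1.0, and the submitters' processing notes name the genome build GRCz11 and Seurat, with no role given. Barcodes were kept from 1000 UMIs and 500 genes upward where no more than 15% of UMIs came from mitochondrial genes (symbols starting mt-). The members and gene lists were chosen with earlier results of these data known. Counts were summed over members and over all other kept barcodes of each library and scaled to CPM, with exact Poisson intervals for levels, Clopper-Pearson intervals for shares and exact conditional binomial intervals for ratios (0.5 added to each sum for a log2 ratio). These intervals treat UMIs as independent and are too narrow where few barcodes hold most of them. Genes needed at least 20 UMIs in members, or that many by the level of the others, to be tested against the others, and at least 30 UMIs in members of both libraries to be tested between genotypes. A higher or lower call against the others was a 4-fold ratio in both libraries, and a call between genotypes was a 2-fold ratio with an interval apart from 0. With 1 library per genotype there is no replicate check and no p-value is given. Named genes were the rule's genes, the markers, the list members, the 20 highest and 10 lowest of members over others, the 8 highest and 8 lowest knockout over control ratios, and the 5 ratios furthest above and below those of the other barcodes. Total UMIs were 17646062 in the knockout and 19368218 in the control library, of which 29.0% and 24.4% lay in barcodes with under 100 UMIs. Doublets were not removed. Scrublet (scanpy 1.11.5) marked 2 knockout barcodes and 0 control barcodes, too few to have worked, so the top-scoring 84 and 134 barcodes were left out as an alternative, 3 and 0 of them members. Gene names matched 23608 of 25435 feature IDs, and 546 symbols are shared by more than 1 feature. Calculations used Python 3.11.15, numpy 2.4.6, scipy 1.17.1 and pandas 2.3.3, and the scripts were tested on simulated data.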

Additional observations from a re-analysis of the deposited data

Results flagged for a closer look

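The median log2 ratio of knockout over control of immediate early genes had opposite signs in members and in all other kept barcodes. It was -1.03 in members and 0.67 in the others, over 22 genes. In members 21 of the 22 had ratios below 0, while in the others 14 of the 22 had ratios above 0. The difference between the 2 medians was not tested, since each genotype had 1 library.

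Kiss1 was also seen in barcodes that hold too few UMIs to be cells. In barcodes with under 100 UMIs it stood at 75.4 CPM in the knockout library and 18.4 CPM in the control library, from 386 and 87 UMIs. The knockout library also held more members, 91 against 23, and the source of these UMIs was not tested.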

How the results depend on the processing

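The log2 ratio of the member share stayed between 2.18 and 2.49 under every alternative run on it, and that of gpr85 between -0.59 and -0.24. The median of the immediate early genes stayed between -1.09 and -0.82. The log2 ratio of H2B-mGL, 2.11 as reported, was 2.02 with at least 2 kiss1 UMIs only, 1.98 with the rule applied after thinning to 1000 UMIs, 2.38 as the mean of barcode CPM, 2.22 with free RNA taken away and 2.52 without the top barcode of each gene. The share of members with at least 2 habenular markers, 91.2% as reported, was 79.4% with at least 1 kiss1 UMI and 98.0% with at least 5. Genes past 2-fold between genotypes numbered 273 with double the minimum UMIs, against 567, where fewer genes are tested. The control ratio of members over others was reversed for ccdc136b (ENSDARG00000075513), at 0.24 as the mean of barcode CPM. It was also reversed for dkk1b, at -0.93 without the top barcode. The ccdc136b feature had 1 UMI in control members. All control UMIs of dkk1b in members lay in 1 barcode, so none remained without it. Both control ratios thus rest on 1 member. Without the top barcode, 483 genes were higher and 116 lower between genotypes, against 310 and 257. That alternative took away each gene's UMIs in its top barcode and left the UMI totals unchanged. The alternatives with at least 5 kiss1 UMIs and without the top barcode were chosen after seeing the data. No paired analysis was possible because each genotype has 1 library. Genes under about 4.37 CPM in knockout and 15.0 CPM in control members are below what this depth shows.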

Other observations

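Outside the comparisons above, the second reporter sequence mCherry-NTR had 27 UMIs in 3 knockout members and 7 UMIs in 2 control members. The member with the fewest UMIs held 1055 in the knockout and 2039 in the control library, and the highest held 17020 and 15213.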
